A study of Mus musculus with 2 samples.

Results

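The intervals described here, called members where genes are counted, are 499 high LHX6-bound regions of the mouse genome that the deposited table placed in no gene. They were chosen from 6566 LHX6 intervals as those with no annotated gene, no CpG island and a height of at least 31, after intervals that overlapped an interval of the input library had been dropped. The height is the highest density of 150 bp fragments in an interval, as the authors gave it. Chromatin immunoprecipitation with sequencing (ChIP-seq) recorded LHX6 binding in maxillary arches, from which the upper jaw and much of the palate form, pooled from 47 wild-type CD-1 embryos at E11.5. There was 1 library immunoprecipitated with a polyclonal antibody to LHX6 and 1 input library of the same tissue without antibody. With 1 library per group and no replicates, no test was made between groups, shares carry exact Clopper-Pearson 95% intervals that cover counting error only, and the read totals are unknown here. In a pool of whole tissue, binding in more cells and stronger binding per cell cannot be told apart.

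LHX6 is a LIM homeodomain transcription factor of the jaw and palate mesenchyme, where it acts together with its close relative LHX8. Homeodomains contact short AT-rich DNA, and TAATTA is the textbook core for the LIM class. Intergenic regions bound by such factors can act as enhancers, which regulate genes over long distances, so the nearest gene is a neighbour and not a known target. E-boxes are the sites of basic helix-loop-helix factors such as TWIST1, which is needed in the same mesenchyme.

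The DNA under the summits, the positions of highest density, is shown first because 3 homeodomain hexamers recur there. They are TGATTG, its variant TGATTA that ends in A, and the LIM core TAATTA. The lines below give 200 bp of the plus strand of build NCBIM37 (mm9) centred on the summit, 5′ to 3′, with these 3 hexamers in capitals on either strand, so that TGATTG also appears as CAATCA and TGATTA as TAATCA. The first 4 windows are those of the highest intervals with a hexamer, and the fifth is the highest interval without one. The last 2 are the highest intervals of the Six2 cluster and of the cluster beside G930045G22Rik.
Dnajc10 to Frzb (chr2:80236893-80237092, plus strand, height 137): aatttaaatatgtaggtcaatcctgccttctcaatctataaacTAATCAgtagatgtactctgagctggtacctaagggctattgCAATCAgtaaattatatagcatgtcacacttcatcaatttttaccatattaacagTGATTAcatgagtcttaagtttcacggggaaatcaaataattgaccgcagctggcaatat
Postn to Fam48a (chr3:54282013-54282212, plus strand, height 127): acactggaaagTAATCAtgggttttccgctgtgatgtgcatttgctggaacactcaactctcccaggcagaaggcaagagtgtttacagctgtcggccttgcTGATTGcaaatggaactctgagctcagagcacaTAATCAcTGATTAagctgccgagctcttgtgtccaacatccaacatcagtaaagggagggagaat
Dusp6 to B530045E10Rik (chr10:98878973-98879172, plus strand, height 119): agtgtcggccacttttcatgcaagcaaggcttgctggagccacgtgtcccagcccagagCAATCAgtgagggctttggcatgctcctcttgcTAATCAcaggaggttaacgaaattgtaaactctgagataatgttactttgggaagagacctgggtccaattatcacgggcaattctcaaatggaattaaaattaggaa
Tcf7l2 to Habp2 (chr19:56096861-56097060, plus strand, height 118): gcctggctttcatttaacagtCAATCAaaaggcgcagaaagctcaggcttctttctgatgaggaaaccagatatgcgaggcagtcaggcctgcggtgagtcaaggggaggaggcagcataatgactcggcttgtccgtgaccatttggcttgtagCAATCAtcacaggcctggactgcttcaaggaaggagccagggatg
Dusp6 to B530045E10Rik, no hexamer (chr10:98822269-98822468, plus strand, height 96): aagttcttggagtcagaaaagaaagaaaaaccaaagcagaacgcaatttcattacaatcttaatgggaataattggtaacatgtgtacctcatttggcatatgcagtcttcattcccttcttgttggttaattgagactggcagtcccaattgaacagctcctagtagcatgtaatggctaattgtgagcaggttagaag
Six2 to Srbd1 (chr17:86148093-86148292, plus strand, height 114): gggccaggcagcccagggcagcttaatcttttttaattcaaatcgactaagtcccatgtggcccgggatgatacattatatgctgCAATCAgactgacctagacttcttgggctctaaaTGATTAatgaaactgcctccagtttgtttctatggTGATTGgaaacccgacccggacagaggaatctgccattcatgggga
G930045G22Rik to Gm9953 (chr6:50875101-50875300, plus strand, height 95): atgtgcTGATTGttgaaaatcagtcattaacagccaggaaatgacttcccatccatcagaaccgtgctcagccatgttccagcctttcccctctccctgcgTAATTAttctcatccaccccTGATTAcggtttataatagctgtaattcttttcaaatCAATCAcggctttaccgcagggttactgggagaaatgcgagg

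The Frzb window held 1 TGATTG and 2 TGATTA, and the Postn window 1 TGATTG and 3 TGATTA. The Dusp6 region had both kinds of summit, since its interval of height 119 held 1 TGATTG and 1 TGATTA while that of height 96 held neither hexamer nor E-box. In the next lines the TGATTG site nearest the summit of the 10 highest intervals with one is set in register, with TGATTG in capitals, to show the bases on either side; the strand on which it reads 5′ to 3′ is given for each.
Dnajc10 to Frzb (chr2:80236971-80236990, minus strand, height 137): aatttacTGATTGcaatagc
Postn to Fam48a (chr3:54282108-54282127, plus strand, height 127): gccttgcTGATTGcaaatgg
Dusp6 to B530045E10Rik (chr10:98879025-98879044, minus strand, height 119): ccctcacTGATTGctctggg
Tcf7l2 to Habp2 (chr19:56097009-56097028, minus strand, height 118): cctgtgaTGATTGctacaag
Scfd2 (chr5:74787087-74787106, minus strand, height 117): tgtttctTGATTGcagcaag
2010107G12Rik to Cnot4 (chr6:34962241-34962260, plus strand, height 115): gtcagctTGATTGtctgagg
Six2 to Srbd1 (chr17:86148171-86148190, minus strand, height 114): gtcagtcTGATTGcagcata
Alox5ap to 6330406I15Rik (chr5:150123263-150123282, minus strand, height 114): ctgacgaTGATTGcgggtca
Gm16484 to Nedd1 (chr10:91314580-91314599, plus strand, height 108): atggccaTGATTGatgctga
Dcdc5 to Mpped2 (chr2:106490533-106490552, minus strand, height 107): tgactcgTGATTGgctgctg

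Of these 10 sites, 7 were followed by C, and 4 were preceded by C, 3 by A, 2 by T and 1 by G. Over all 415 TGATTG sites within 100 bp of the 499 summits, C followed 41.4% of sites. It followed 18.7% of 1329733 TGATTG sites of the genome, 27.6% of the 105 sites in windows 2 kb away and 36.1% of 642 sites at lower intergenic intervals. C or T came before 73.7%, against 52.1% in the genome, 57.1% in windows 2 kb away and 67.8% at lower intergenic intervals. A came before 9.64%, against 24.2% in the genome, 18.1% in windows 2 kb away and 16.2% at lower intergenic intervals. TGATTA was likewise preceded by C or T at 68.5% of 292 sites, against 53.0% in the genome and 63.7% at lower intergenic intervals. Several sites can lie in 1 interval, so these shares have no interval of their own.

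Of the 499 high intergenic intervals, 400 (80.2%, 76.4 to 83.6) had at least 1 of the 3 hexamers within 100 bp of the summit. The share was 50.1% over all 6566 LHX6 intervals, 66.0% (63.4 to 68.5) in the 1363 intergenic intervals below the height of 31 and 85.8% (81.6 to 89.3) in the 344 intervals of the same height inside genes without CpG island. In windows 2 kb to the left and right of the same summits it was 19.7% (17.3 to 22.3), and 24.2% of all 12778424 tiles of 200 bp in the genome held one. The intervals of the shares at summits and in flanks did not overlap.

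TGATTG was the most frequent of the 3, at 54.3% of summits (49.8 to 58.7) against 7.92% of flanking windows, and 9.41% of genome tiles. TGATTA occurred at 44.3% (39.9 to 48.8) against 7.52% of flanks and 10.2% of tiles. TAATTA, the textbook core, occurred at 12.6% (9.84 to 15.9) against 6.11% of flanks and 7.21% of tiles. At lower intergenic intervals the shares were 37.4% for TGATTG, 34.5% for TGATTA and 13.8% for TAATTA, and the exact 95% interval of the last overlapped that of the high intervals. The variant TAATTG was present at 24.0% of summits (20.4 to 28.0) against 9.12% of flanks. Longer sites built on TGATTG were fewer. TGATTGG, which contains the reverse complement of the CCAAT box, occurred at 17.6% against 1.90%, and TGATTGAT, the type bound by PBX with HOX proteins, at 4.81% (3.11 to 7.07) against 1.10%. TGATTGAC, the type bound by PBX with MEIS proteins, was found in 7 windows (1.40%, 0.566 to 2.87) against 0.501% of flanks. The base composition of summits was 45.1% G and C, near that of lower intergenic summits at 44.8%, against 42.7% in the flanks.

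**Figure D1:**
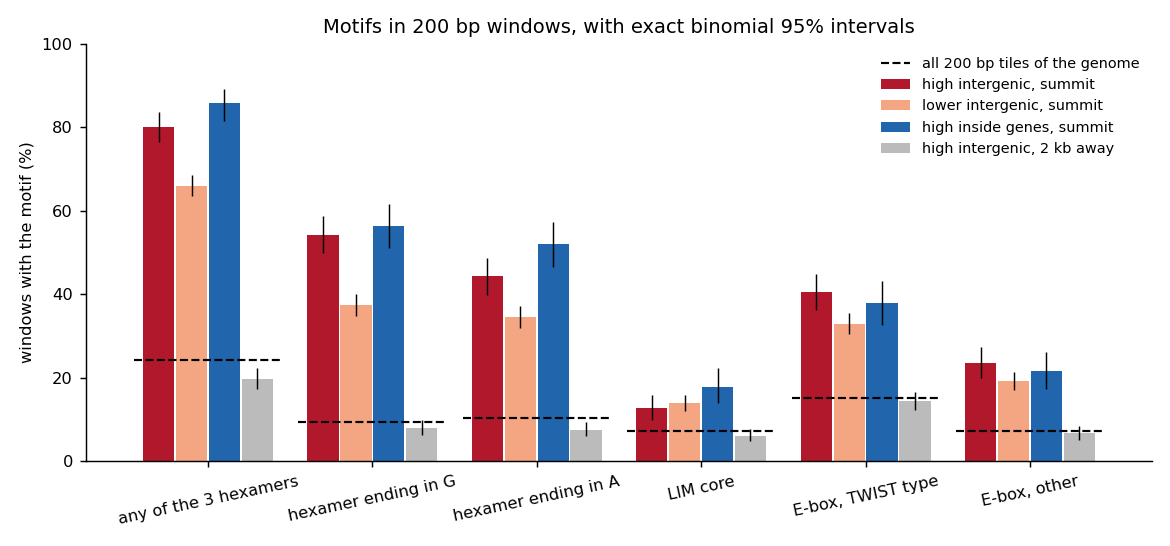
Share of 200 bp windows (percent, y axis) that hold each motif at the summits of high intergenic intervals (n = 499), lower intergenic intervals (n = 1363) and high intervals inside genes (n = 344), and 2 kb from high intergenic summits (n = 998). The motifs are the 3 hexamers together, TGATTG (ending in G), TGATTA (ending in A), TAATTA (LIM core) and the E-boxes CATCTG (TWIST type) and CAGCTG (other); error bars are exact binomial 95% intervals and dashed lines the genome tiles. Any hexamer reached 80.2% at high intergenic summits and 19.7% at 2 kb, and TAATTA 12.6% and 6.11%.

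The hexamers lay close to the summit. In the 388 intervals with TGATTG or TGATTA in the window, the nearest such site was a median of 18.5 bp from the summit, and 341 intervals (68.3% of all 499) had one within 50 bp. In bins of 40 bp, TGATTG reached 7.36 sites per kb against a mean of 0.497 beyond 500 bp, a ratio of 14.8. TGATTA reached 4.86 against 0.468, a ratio of 10.4. TAATTA reached 0.902 against 0.426, in the bin at the summit and equally in that centred 80 bp to its left. Around lower intergenic summits the ratio was 7.46 for TGATTG and 7.16 for TGATTA. The highest bins of TGATTG and TGATTA were those centred 40 bp to the right of the summit, with the bin at the summit next (7.21 and 4.76 sites per kb), and 67.8% of nearest sites lay to the right. At lower intergenic summits 60.1% of nearest sites lay to the right. Every summit was a multiple of 16 bp, so the deposited summits are no finer than that. Whether a position counts from 0 or from 1, or marks the start of a bin, is not given in the sources used here, so a shift of sites to 1 side cannot be told apart from this convention.

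**Figure D2:**
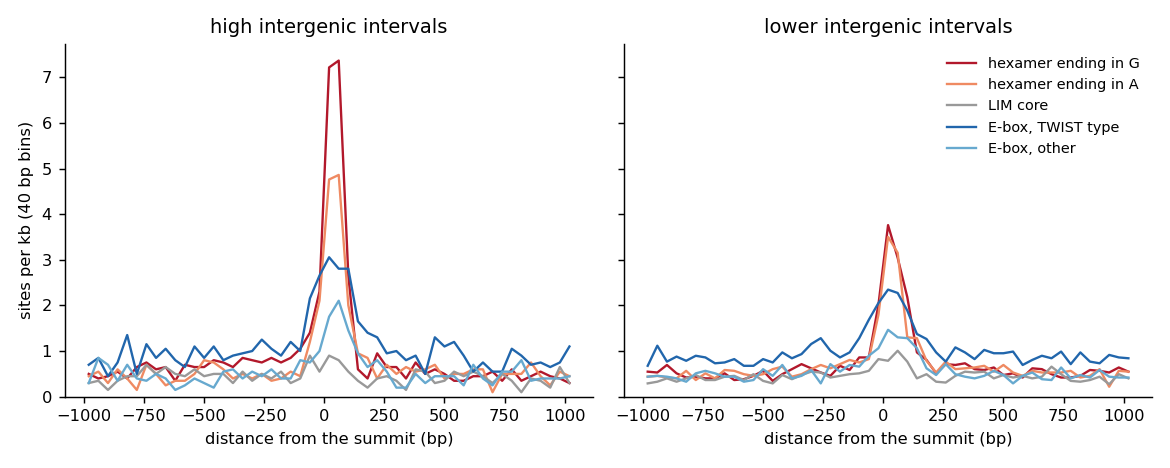
Sites per kb (y axis, bins of 40 bp) against the distance from the summit (bp) for the 5 motifs, over 499 high intergenic (left panel) and 1363 lower intergenic intervals (right panel). Each point is drawn at the right edge of its bin, so the curves stand to the right of the bin centres named here. TGATTG peaked at 7.36 sites per kb in the bin centred 40 bp right of the summit in high intervals and at 3.76 in the bin at the summit in lower ones, while TAATTA reached no more than 0.902 and 1.01.

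E-boxes were frequent at the same summits. CATCTG, the E-box type of TWIST1, occurred at 40.5% (36.1 to 44.9) against 14.3% of flanks and 15% of genome tiles, and CAGCTG at 23.4% (19.8 to 27.4) against 6.61% and 7.23%. At least 1 of these 2 E-boxes was present in 277 of 499 windows (55.5%, 51.0 to 59.9), against 33.8% over all LHX6 intervals, 45.3% (42.7 to 48.0) of lower intergenic summits and 20.2% of flanks. At the 344 intervals of the same height inside genes the share was 50.6% (45.2 to 56.0), and its exact 95% interval overlapped that of the high intergenic ones. CATCTG was at 37.8% and CAGCTG at 21.5% there. Other E-boxes were near their flank level, with CACCTG, the type of ZEB and SNAI repressors, at 9.22% (6.83 to 12.1) against 11.4%, and CATATG at 8.62% (6.31 to 11.4) against 7.01%.

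Among high intergenic intervals, E-boxes were counted with and without a homeodomain hexamer. Of the 99 without, 72 had CATCTG or CAGCTG (72.7%, 62.9 to 81.2), and of the 400 with, 205 did (51.2%, 46.2 to 56.2). These exact 95% intervals did not overlap, and the difference itself was not tested. The order was the same at lower intergenic summits, with 54.2% (49.6 to 58.8) without a hexamer and 40.8% (37.5 to 44.1) with one, and at high intervals inside genes, with 69.4% and 47.5%. Intervals below the height of 31 inside genes without CpG island also had this order, with 51.7% and 39.8%. In flanking windows the order was the same at a lower level, 21.1% (18.3 to 24.1) without and 16.8% (11.8 to 22.7) with one, and these intervals overlapped. Over all LHX6 intervals, a pool that includes those at CpG islands, it was the opposite, with 30.5% (28.9 to 32.1) without and 37.1% (35.5 to 38.8) with a hexamer. The order thus did not hold in the pool. Summits of the pool had 53.7% G and C, against 45.1% at high intergenic summits, and whether this bears on the opposite order was not tested. Only 27 of the 499 windows (5.41%, 3.6 to 7.78) held neither kind of site, against 63.3% of flanking windows and 15.6% of lower intergenic summits. The highest of those without a hexamer were the Dusp6 interval of height 96, with no E-box, an interval of height 77 between Adam28 and Stc1 with 1 CATCTG and 2 CAGCTG, and an interval of height 69 inside Bahcc1 with 3 CATCTG and 2 CAGCTG.

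Where a hexamer and an E-box shared a window, 1 distance between them recurred. In 25 of the 205 windows with both (12.2%), a hexamer and an E-box started 10 bp apart, so that 4 bases lay between them. The 54 other distances from 6 to 60 bp were found in a median of 4 windows each and in at most 9. At lower intergenic summits 17 of 367 windows had the 10 bp distance, against a median of 6 and at most 12 for the other distances, and inside genes 14 of 140, against 3 and at most 9. Windows 2 kb from the high intergenic summits had it in 1 of 33. A distance of 4 bp, at which the 2 sites overlap by 2 bases, was found in 11 of 205 windows at high intergenic summits (5.37%). Their flanks had it in 2 of 33 (6.06%), so among windows with both kinds of site it was no more frequent at these summits. Of all windows, 2.20% of the 499 at summits and 0.200% of the 998 in flanks had it. At lower intergenic summits it was in 15 of 367 windows (4.09%), against 4 of 112 in their flanks (3.57%), and inside genes in 4 of 140. The distances were examined after other results of these data had been seen, and no test was made of them.

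The pairs at 10 bp joined TGATTG to CATCTG in 7 cases and to CAGCTG in 4, TGATTA to each of them in 6, and TAATTA to CATCTG in 2. Next, 8 of the highest intervals with such a pair are set in register below, on the strand that puts the hexamer on the left, with both sites in capitals. The E-box CATCTG reads CAGATG on the other strand, so both spellings occur.
Mfap3 to Galnt10 (chr11:57362682-57362705, plus strand, height 63): ccacCAATCAggccCAGCTGgggt
Cdon to Ddx25 (chr9:35337598-35337621, plus strand, height 61): ctccTGATTAggtgCAGATGactg
Olfm4 to Pcdh17 (chr14:83898932-83898955, plus strand, height 58): tctaTGATTGttgcCATCTGctgt
BC061194 to Pip4k2a (chr2:18700058-18700081, plus strand, height 57): gttcTGATTGctgaCAGCTGaagg
Kcnj2 to Gm11678 (chr11:111430291-111430314, minus strand, height 55): ctagTAATCAcagcCAGCTGtgag
2310028O11Rik to Capzb (chr4:138700724-138700747, minus strand, height 53): gcatTAATTAgtcaCAGATGcata
Kcnf1 to Pdia6 (chr12:17256249-17256272, plus strand, height 50): aacgTAATCAgctcCAGCTGgcag
Auts2 to Gatsl2 (chr5:134490795-134490818, minus strand, height 50): tgacTGATTGgctcCAGATGggcc

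In the overlapping arrangement the last 2 bases of the hexamer were the first 2 of the E-box, as in 3 intervals of this kind, shown on the same plan. Not every interval of this kind was set out, so these 3 are not ranked as the highest.
Runx1 to Setd4 (chr16:93060610-93060627, plus strand, height 46): ggttCAATCAGCTGtaat
Gm17425 (chr12:81374559-81374576, plus strand, height 46): caccCAATCAGATGaaag
Ptbp2 to Rwdd3 (chr3:119861658-119861675, plus strand, height 36): tttcCAATCATCTGggaa

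In the first set no base between the sites was the same in all 8. Flanking genes of intervals with a pair included Cdon, a hedgehog co-receptor gene (pair at height 61), Auts2, a neurodevelopmental gene (height 50), and Jarid2, which encodes a partner of the Polycomb repressor (height 49). Runx1, which encodes a RUNX transcription factor, flanked 1 of the overlapping pairs shown, at height 46.

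**Figure D3:**
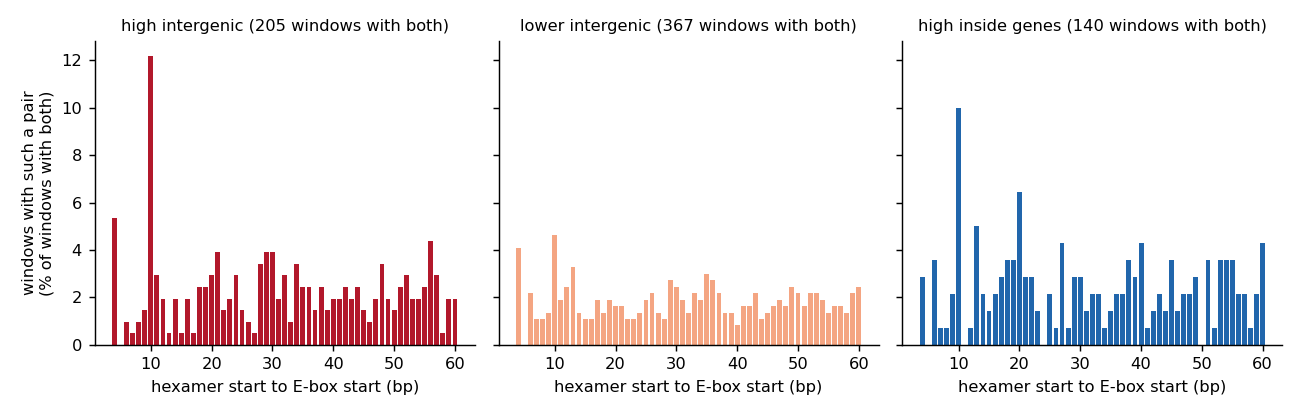
Share of windows with both kinds of site (percent, y axis) in which a homeodomain hexamer and an E-box (CATCTG or CAGCTG) start at each distance from 4 to 60 bp, for high intergenic (205 windows), lower intergenic (367) and high intervals inside genes (140). The bar at 10 bp stands at 12.2% in high intergenic intervals, 4.63% in lower ones and at 14 of 140 windows inside genes.

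Many of the high intergenic intervals held several hexamers. Only these intervals were grouped by their number of sites, and not the lower intergenic ones, those inside genes, the flanks or the genome tiles. Whether several sites were more frequent here than elsewhere was therefore not tested. There were 164 with 1 site, 150 with 2, 59 with 3, 16 with 4 and 11 with 5 or more, so that 236 (47.3%) had at least 2. Some of the 11 were arrays of sites at regular steps. Next, 4 of those with most sites are shown on the plus strand, with the 3 hexamers in capitals.
Smg1 to Syt17 (chr7:125448253-125448452, plus strand, height 40): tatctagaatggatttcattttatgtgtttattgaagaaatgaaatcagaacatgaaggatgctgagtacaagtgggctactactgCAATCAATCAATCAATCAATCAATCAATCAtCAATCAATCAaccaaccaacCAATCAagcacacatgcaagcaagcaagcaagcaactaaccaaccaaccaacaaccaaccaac
Egln3 to 1110002B05Rik (chr12:55661533-55661732, plus strand, height 34): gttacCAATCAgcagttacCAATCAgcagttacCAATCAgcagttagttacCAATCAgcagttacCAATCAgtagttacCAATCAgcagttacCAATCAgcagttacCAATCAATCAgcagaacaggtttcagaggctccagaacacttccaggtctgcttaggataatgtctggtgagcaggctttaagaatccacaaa
Fam76b to Sesn3 (chr9:13732509-13732708, plus strand, height 36): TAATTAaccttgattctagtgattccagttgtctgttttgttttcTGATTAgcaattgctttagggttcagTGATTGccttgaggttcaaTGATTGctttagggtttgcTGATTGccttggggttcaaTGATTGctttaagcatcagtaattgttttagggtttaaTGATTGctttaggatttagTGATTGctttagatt
Epb4.1l3 to Zfp161 (chr17:69652957-69653156, plus strand, height 103): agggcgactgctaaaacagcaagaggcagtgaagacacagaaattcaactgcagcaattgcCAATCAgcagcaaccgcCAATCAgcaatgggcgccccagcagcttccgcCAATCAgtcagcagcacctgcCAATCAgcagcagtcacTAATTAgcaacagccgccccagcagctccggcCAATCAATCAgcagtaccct

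Near Smg1, all 10 TGATTG sites lay on the minus strand and 7 of the 9 steps between neighbours were 4 bp, the sites overlapping in a tetranucleotide repeat. At 1110002B05Rik, 6 of 8 steps were 14 bp, and at Fam76b 4 of 6 steps were 19 bp with all 7 sites on the plus strand. Between Epb4.1l3 and Zfp161 the 5 steps between the 6 TGATTG sites ranged from 4 to 49 bp and each differed from the others. The heights of these intervals were 40, 34, 36 and 103. The Smg1 and 1110002B05Rik windows held 31 bp words that occurred up to 32 and 14 times in the genome, copies in the same window included. In the 473 intervals whose window held no 31 bp word that occurred more than once in the genome, the share with a hexamer was 80.3% (76.5 to 83.8).

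The heights chose the intervals and are given as a description. They had a median of 40 (quartiles 34 and 53) and ranged to 137. Of the 1862 intergenic intervals left after the drop, 26.8% reached 31, against 20.4% of all LHX6 intervals, and nothing is read from these shares. The 29 intervals at 31, just inside, had a median mean density of 11.9 and a median length of 787 bp, and the 38 intergenic intervals at 30, just outside, 11.4 and 819 bp. Lengths had a median of 874 bp, against 742 bp for the lower intergenic intervals. A height of 50 was reached by 143, one of 70 by 47 and one of 100 by 14. The dropped intervals, on chromosome 11 (108872537 to 108873657) and chromosome 3 (5860216 to 5860975), had LHX6 heights of 177 and 151 and input heights of 90 and 49. No other high intergenic interval overlapped an input interval, of which there were 6 in all.

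The share with a hexamer was similar over most of the height range and highest at the top. It was 77.6% (69.6 to 84.4) of 134 intervals of height 31 to 34, 75% of 108 from 35 to 39, 80.7% of 114 from 40 to 49, 81.2% of 96 from 50 to 69 and 95.7% (85.5 to 99.5) of 47 from 70. TGATTG alone was at 45.5%, 55.6%, 47.4%, 59.4% and 83.0% in these classes, from lowest to highest. The mean number of hexamers per window was 1.34 in the lowest class and 2.38 in the highest. The E-box share was 56.7%, 60.2%, 55.3% and 57.3% in the classes below 70, and 38.3% in the 47 intervals from 70. Over the 499 intervals the Spearman correlation of height was 0.227 with the number of hexamers, -0.0246 with the number of E-boxes and 0.00592 with the G and C content. These are descriptions within 1 library, whose intervals share its depth. The median height was 41 with a hexamer and 38 without, and the ranges overlapped, with single intervals without one up to 96.

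**Figure D4:**
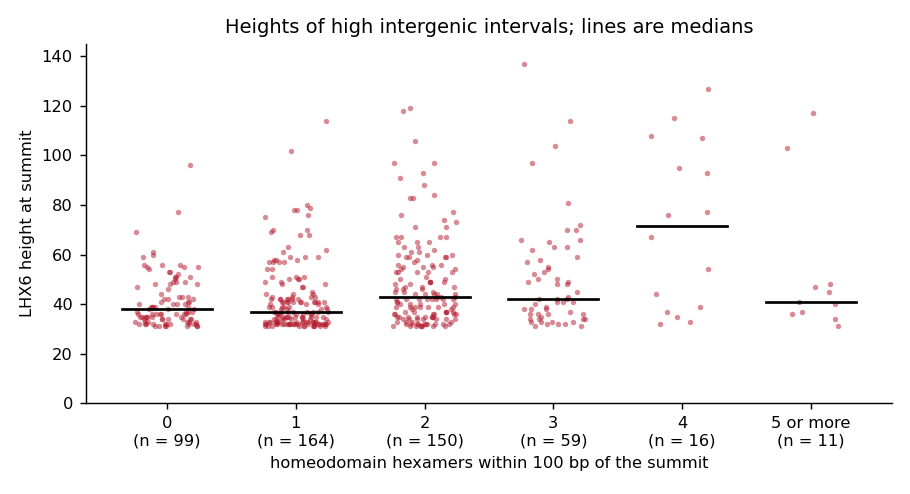
Height at the summit (fragment density, y axis) of each of the 499 intervals by the number of homeodomain hexamers within 100 bp (x axis); points are intervals and lines medians. The medians are 38 with no site, 37 with 1, 43 with 2, 42 with 3, 71.5 with 4 (n = 16) and 41 with 5 or more (n = 11), and the groups overlap widely.

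Other motifs were closer to their flanks than TGATTG and TGATTA were. They are set apart here by whether the exact 95% intervals of both shares overlapped, which is a description and no test. Above the flanks without overlap were the forkhead core TGTTTA at 24.2% of summits (20.5 to 28.3) against 15.9% (13.7 to 18.4), the RUNX core TGTGGT at 21.2% against 15.3% with intervals that almost touched, and the NFI part site TTGGCA at 14.4% against 8.22%. Below them without overlap were the GATA core AGATAA at 6.41% (4.43 to 8.93) against 13%, and TATATA, of the same composition as TAATTA, at 3.61% (2.15 to 5.64) against 8.02% (6.41 to 9.88). The intervals overlapped for the TEAD core GGAATG (15.8% against 10.9%), the MEIS and TGIF core TGACAG (16.8% against 13%), the SOX core ACAATG (8.62% against 12.6%) and the AP-1 site TGAGTCA (3.41% against 3.71%).

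The label intergenic was checked against a second annotation, GENCODE M1. By it 40 of the 499 (8.02%, 5.79 to 10.8) lay inside a gene, 27 of them inside a protein-coding one, and 423 (84.8%, 81.3 to 87.8) lay more than 10 kb from every gene. The lower intergenic intervals had 10.6% inside a gene and 82.7% beyond 10 kb. Inside protein-coding genes were intervals of height 117 in Scfd2, 69 in Bahcc1, 68 in Macrod2, 59 in Hdac9, which encodes a histone deacetylase, and 57 in Rarb, which encodes a retinoic acid receptor. The highest of all, at 137, lay in the noncoding transcript Gm13752 near Frzb. The median distance to the nearest protein-coding gene start was 117 kb (quartiles 51.4 and 264), against 127 kb for the lower intervals. Within 20 kb of such a start were 43 intervals, 185 lay between 20 and 100 kb, 220 between 100 and 500 kb and 51 beyond 500 kb. An interval with a height of 31 covered the start of Nos1, a nitric oxide synthase gene.

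The highest intervals had neighbours of many kinds, and all positions are in mm9. That of height 137 (chr2:80236234-80238060) lay 50.8 kb from the start of Frzb, which encodes a secreted WNT antagonist, and 81.4 kb from that of Dnajc10, an endoplasmic reticulum chaperone gene. That of height 127 (chr3:54281767-54282586) lay 117 kb from the start of Postn, which encodes the matrix protein periostin, and 215 kb from that of Fam48a, with a second interval of height 56 at 105 kb from Postn. Tcf7l2, a nuclear effector of WNT signalling, had its start 281 kb and Habp2 265 kb from an interval of height 118 (chr19:56096426-56097552). The interval of height 117 inside Scfd2 (chr5:74786602-74788073) had Rasl11b and Fip1l1 on its sides, and held 1 TGATTG, 3 TGATTA and 1 TAATTA.

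Other intervals above 100 lay between 2010107G12Rik and Cnot4, a ubiquitin ligase gene (height 115, 9.86 kb from the edge of Cnot4), between Alox5ap, a leukotriene synthesis gene, and 6330406I15Rik (height 114), and between Gm16484 and Nedd1, a centrosome gene (height 108, 623 kb from the former). Dcdc5 and Mpped2 flanked one of height 107, 42.9 kb from the start of Mpped2, and Rnf144b, a ubiquitin ligase gene, one of height 106 with 4931429P17Rik on its other side. Further ones lay between 5730508B09Rik and Gm10650 (104), Epb4.1l3, a membrane skeleton gene, and Zfp161 (103), and Dok5 and Cbln4 (102). All of these windows held TGATTG.

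At a height of 97 there were 3 intervals, which lay between Nedd9, a focal adhesion scaffold gene, and Tmem170b, between the homeobox gene Irx3 and 4933436C20Rik (439 kb from the Irx3 start), and between Lhx8 and Tyw3. That of Lhx8, the close relative of Lhx6, lay 199 kb from its start (chr3:154191714-154192622) and held 1 TGATTG and 1 TGATTA, and a second interval of height 54 lay 235 kb from it. Slc1a3, a glutamate transporter gene, and Ranbp3l flanked an interval of height 93. Of the 20 highest, all but the Dusp6 interval of height 96 held TGATTG.

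Of the 499, 105 (21.0%, 17.5 to 24.9) had another high intergenic interval within 100 kb. A lower intergenic interval lay so near to 39.1% (34.8 to 43.5) of them, as another did to 38.8% of the lower ones, and any other LHX6 interval to 58.5%. Of all 1862 intergenic intervals 46.7% had another so near, a denser set whose share cannot be set against the 21.0%. Grouped by this distance there were 394 single intervals, 42 pairs, 5 groups of 3 and 1 of 6. By gaps between protein-coding genes, 365 gaps held a member, 285 of them only 1, and 80 held 2 or more.

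The group of 6 lay between Six2, a homeobox gene of facial and kidney mesenchyme, and Srbd1 on chromosome 17, over 218 kb of a gap of 296 kb. Its heights were 34, 44, 114, 34, 33 and 31, at 29.0, 49.2, 60.6, 160, 170 and 247 kb from the Six2 start, and 2 lower intervals of 22 and 24 lay among them. Only the third stood far above the rest, and all 6 windows held TGATTG or TGATTA. In this gap there were 20.2 members per Mb.

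The Dusp6 group had heights of 96, 72 and 119, all in the far part of the gap, 96.5, 120 and 153 kb from the start of Dusp6, which encodes a phosphatase that restrains FGF signalling through ERK. The last lay 4.08 kb from the start of B530045E10Rik. All 3 were among the 47 intervals of height 70 or more, and the lower one between them was at 24. Between G930045G22Rik and Gm9953 on chromosome 6 there were 4 high intervals of 95, 67, 49 and 93, of which the last lay 98.7 kb from the microRNA gene Mir148a, and 4 lower ones. The interval of 49 was the only one of these 4 without a homeodomain hexamer.

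The widest spread was between Slc4a3 and Epha4, which encodes a receptor for ephrins that guides axons and cells. In this gap of 1805 kb, 6 high intervals of 34, 36, 67, 46, 31 and 57 were strung over 1505 kb. The gap also held 13 lower ones, some of them outside that stretch. The high interval nearest to the Epha4 start lay 176 kb from it, at height 57. Of the 6 high intervals, 5 held a hexamer. Of the 17 gaps with 3 members, that of Dusp6 and the 4 with the next highest members are described, the latter being those of Hist1h2al and S1pr3 (37, 70 and 32), Magi1 and Slc25a26 (53, 65 and 35, within 22.6 kb), Tmem26 and Rhobtb1 (33, 61 and 42), and C130026L21Rik and Cryba4 (59, 33 and 50).

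**Figure D5:**
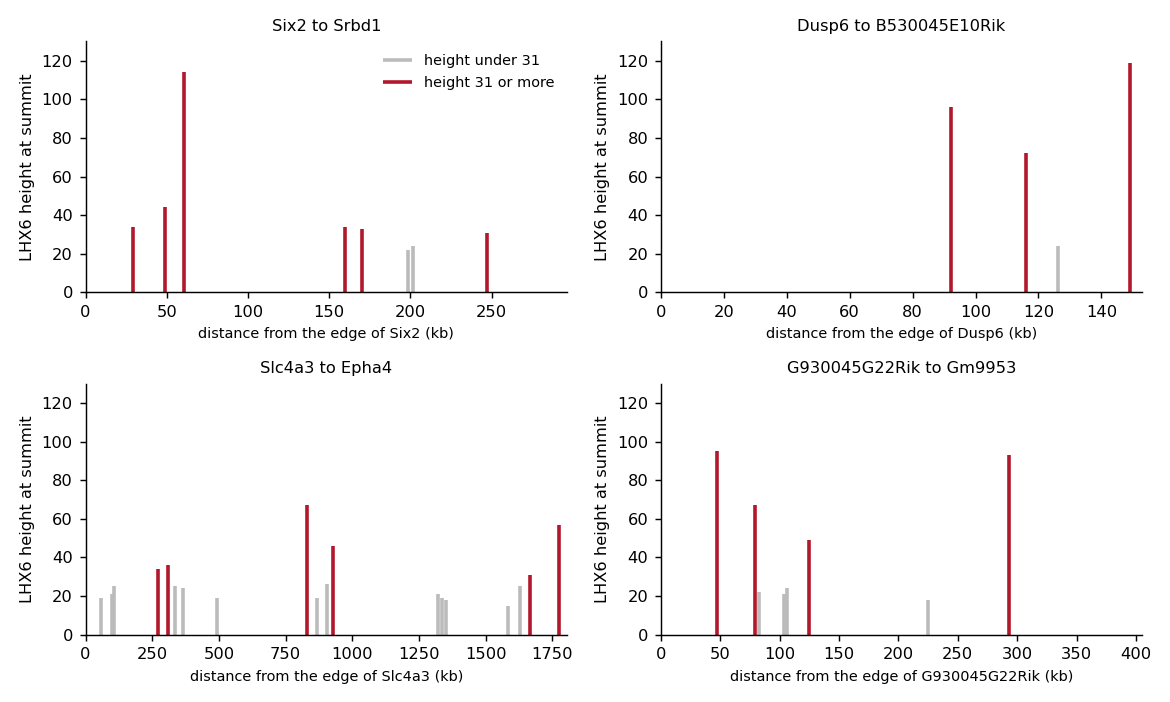
Heights (fragment density, y axis) of high intergenic intervals (dark lines, 31 or more) and lower intergenic intervals (grey) in 4 gaps between protein-coding genes, against the distance in kb from the edge of the left gene. The x axis spans the whole gap, and the heights reach 114 near Six2, 119 near B530045E10Rik, 67 between Slc4a3 and Epha4, and 95 beside G930045G22Rik.

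Transcription factor genes of the facial mesenchyme flanked 53 of the 499 intervals (10.6%, 8.06 to 13.7), against 11.2% of intergenic intervals of any height and 11.4% (9.73 to 13.2) of the lower ones. The exact 95% intervals of the high and lower shares overlapped. The gaps beside these genes made up 3.85% of the sequence in gaps between protein-coding genes, trimmed by 10 kb at each side, and held 47 of the 462 members there (10.2%, 7.57 to 13.3) and 10.6% of the lower intervals. Of the 100 genes of the list in the annotation, 34 flanked a member. The list was written with earlier results of these data known.

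Six2, Eya1 and Eya4 encode proteins that can act in one complex. Six2 had 6 members, Eya1 had 1 (height 79, 203 kb from its start) and Eya4 had 2 (70 and 37). Homeobox genes besides Irx3 and Lhx8 were Msx1 (height 76, 183 kb), a regulator of tooth and palate growth, Prrx1 with 3 members of 34 to 58, Shox2 (56), Meis1 (51), Barx1 (33) and Pax9 (33, 21.8 kb). Homeobox proteins with zinc fingers were represented by Zfhx3 with 2 members (55 and 33) and Zeb2 (48). Basic helix-loop-helix genes were Twist1 with 3 members of 41 to 71, the highest only 22 kb from its start, Twist2 (31) and Id2 with 2 (36 and 31).

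SOX genes were Sox11 (68), Sox9, the regulator of cartilage (63, 232 kb from its start), Sox5 with 2 (62 and 39) and Sox6 with 2 (40 and 31). Forkhead genes were Foxc2 (49), Foxp1 (41) and Foxf2 (32). Zinc finger genes were Bnc2 with 2 (83 and 31), Osr2 (48), Osr1 with 3 of 35 to 40, Tshz3 (36) and Tshz1 (35), of which Osr2 is a regulator of palate growth. The others were Nfia (53), Runx1 (46), Tcfap2b (38), Mef2c (34), Nfib with 2 (34 and 31) and Ebf1 (33). For 32 of the 34 genes the highest member lay more than 50 kb from the gene start, 1210 kb away for Sox5. Over all 499 members the lower quartile of the distance to the nearest protein-coding gene start was 51.4 kb. Such distances are therefore not particular to these genes.

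Guidance genes flanked 23 members (4.61%), and in trimmed gaps 4.76% (3.01 to 7.12) of members against 2.66% of the sequence and 4.77% of lower intervals. The highest was beside Epha3 (70, 709 kb), then came Epha4 with 6 (up to 67), Robo1 and Robo2 with 3 each (up to 49 for both), and Efna5 with 3 (up to 47). Robo1 and Robo2 shared a pair of 49 and 32 in the gap between them. Their members were not all the same, since the lowest was 32 for Robo1 and 31 for Robo2.

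WNT pathway genes flanked 10 members (2.0%), 1 for each of 10 genes, and in trimmed gaps 2.16% (1.04 to 3.94) against 0.693% of the sequence and 2.51% of lower intervals. Besides the antagonist Frzb (137) and Tcf7l2 (118), those with the highest members were the antagonists Dkk1 (54, 190 kb) and Sfrp2 (48, 167 kb) and the ligand Wnt5a (44, 294 kb). FGF and PDGF pathway genes flanked 9 members, led by the feedback inhibitors Dusp6 (119) and Spry4 (83), then Flrt3 (68), Fgfr1 (51) and Spred2 (51). The interval beside Spred2 is the one also counted for Meis1. In trimmed gaps these genes flanked 1.52% (0.611 to 3.10) of members, against 1.02% of the sequence and 1.78% of lower intervals.

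Extracellular matrix genes flanked 7 members, namely Postn with 2, Tnc with 2 (32 and 31), Col4a1 (35), Col5a2 (33) and Dcn (32). In trimmed gaps that was 1.52% (0.611 to 3.10), against 0.967% of the sequence and 2.26% of lower intervals. BMP and TGF-beta genes flanked 4, those of Acvr2a (48), Smad1 (46), Gdf10 (34) and Bmp2 (33), or 0.866% (0.236 to 2.20) against 1.0% of the sequence and 1.70% of lower intervals. The interval beside Acvr2a is the one also counted for Zeb2, and lay 3587 kb from the Acvr2a start. The hedgehog co-receptor genes Cdon (61) and Boc (41 and 32) flanked 3, or 0.649% (0.134 to 1.89) against 0.236% of the sequence and 0.566% of lower intervals.

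Genes that mark other cells of the arch were few, and so were the members beside them. Of 22 facial epithelium genes 1 flanked a member, Grhl2 (height 39), and of 13 head muscle genes 2 did, Msc (79) and Mef2c. The interval beside Msc is the one also counted for Eya1, and Mef2c is also in the mesenchyme list. Of 18 endothelial genes 1 did, Cdh5 with 2 members (60 and 41), of 15 blood cell genes 1, Ptprc (65), and of 21 neuron and glia genes 2, Syt1 (59) and Elavl4 (44). Each list thus flanked at most 2 members, or 0.401%. In trimmed gaps the shares of members were 0.216% against 0.215% of the sequence for epithelium, 0.433% against 0.262% for head muscle, 0.433% against 0.238% for endothelium, 0.216% against 0.0553% for blood and 0.216% against 0.467% for neurons and glia. With 1 or 2 members each, every exact 95% interval held the share of sequence. The table holds no expression values, so whether these genes or the mesenchyme genes were active in the tissue was not analysed here.

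Members were present on every chromosome from 1 to 19 and on X, at 1.89 per 10 Mb. The density was highest on chromosomes 12 (2.89), 10 (2.77) and 13 (2.74), and lowest on X (0.180, 3 members) and 19 (1.14, 7 members). The lower intergenic intervals, at 5.16 per 10 Mb in all, were also sparsest on X (0.600) and 19 (2.93). By size of gap, gaps of up to 200 kb held 26.2% of the members in trimmed gaps and 24.5% of the sequence, and gaps above 1000 kb held 25.1% of members and 34.9% of the sequence.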

How the data were processed

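LHX6 ChIP and input chromatin of pooled maxillary arches were sequenced, 1 library each. Per the labels' protocols, BWA placed the reads on mm9 and each was lengthened to a 150 bp fragment. The submitters' processing notes also name MACS, without a version. How intervals were called, how many reads there were and whether the libraries were scaled is not given in the sources used here. As deposited, the signal of an interval is its highest fragment density (height) and the mean of its 32 bp bins; there is no fold enrichment or p-value. Depth and the rest of the genome, including weak binding below the authors' threshold, therefore cannot be judged from the table. It holds no column of other samples.

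Intervals were selected in Python 3.11.15 with pandas 2.3.3 and NumPy 2.4.6, and exact intervals of shares (95%) computed with SciPy 1.17.1. The genome was NCBIM37, indexed with samtools 1.23.1, and the genes those of GENCODE M1. All intervals lay within the chromosome lengths of this build. Motifs were counted on both strands in 200 bp windows centred on the deposited summit, beside windows 2 kb to either side and all 200 bp tiles of chromosomes 1 to 19 and X. A palindrome was counted once, overlapping sites were counted each, and 20 motifs were searched. The counting was checked on simulated sequences with planted sites. Flanking genes are the nearest protein-coding genes on either side that do not contain the summit. Words of 31 bp served to find repeated sequence, since the reference marks no repeats.

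The members, the 12 gene lists, the motifs and the alternatives were chosen with earlier results of these data known. Named genes are those that flank the 20 highest members, the 8 gaps with most members and the 5 largest clusters (ties by height), all facial mesenchyme factor genes that flank a member, and up to 5 genes of each other list with the highest members. The genes named beside E-boxes, hexamer pairs and arrays, inside gene bodies, and Nos1 were chosen after their values were seen, as were the pair distances, the printed arrays and the printed single sites. With 1 library per group no test was made.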

Additional observations from a re-analysis of the deposited data

How the results depend on the processing

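The number of high intergenic intervals was 836, 257 and 143 with a minimum height of 25, 40 and 50, and 501 with rows that overlap an input interval kept. Of the same number taken by mean density instead of height, 418 were shared. The share with a homeodomain hexamer was 70.5% in windows of 100 bp, 85.4% in windows of 400 bp, 69.1% around the middle of the interval, 83.7% from a height of 40 and 86.0% from 50. By single hexamers it was 54.3% (TGATTG), 44.3% (TGATTA) and 12.6% (TAATTA). It stayed within the counting error of 80.2% from a height of 25, without repeated 31 bp words, and in a window centred 40 bp to the right (79.4%). The latter 2 settings were chosen after the data were seen. The share beside a facial mesenchyme factor gene was 6.21% by the nearest gene start alone and 17.2% by the nearest 2 genes on each side, and within its counting error at other minimum heights. The median distance to a gene start was 67.2 kb with all genes of the annotation and 95.5 kb from a height of 50. The share with another member near was 13% within 50 kb, 30.1% within 200 kb and 58.5% with all LHX6 intervals as neighbours, and 28.8%, 12.5% and 11.9% with a minimum height of 25, 40 and 50. The share away from genes was 92.0% for intervals not inside a gene, 71.7% with a margin of 20 kb and 92.6% with protein-coding genes only. Counts, distances and shares under wider or narrower windows and margins differ by construction, and for the shares and distances that moved with the minimum height the cause was not tested.

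No paired analysis was possible because each group had 1 library. The alternative without soft-masked sequence was not run, since the reference marks no repeats. Read totals and replicate error are unknown here, heights have no error, and shares carry counting error alone.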
